A study of Mus musculus with 6 samples.

Results

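Axon guidance ligands and receptors were examined in the transcriptome of the mouse modiolus, the central axis of bone in the cochlea in which lie the spiral ganglion neurons (SGNs), which carry signals from the hair cells to the brain. The members are the protein-coding mouse genes of the semaphorin (Sema), plexin (Plxn), neuropilin (Nrp), ephrin (Efn), Eph receptor (Eph), netrin (Ntn), Unc5, Slit and Robo families, together with the netrin receptor Dcc, chosen by gene symbol. They number 69 of 22028 protein-coding genes, and 62 of the 69 have at least 1 transcript in the deposited table, as have 17599 protein-coding genes in all.

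Control and degenerated libraries, 3 of each, were made from C57BL/6 mice. By the study's methods the mice were 8-week-old males, and degeneration was induced with 1 g/kg kanamycin sulfate under the skin followed after 30 min by 0.4 g/kg furosemide into the peritoneum, a drug pair that destroys hair cells, after which SGNs die over weeks, whereas controls received saline. The transcriptome was taken on day 30. The labels name SGNs as the cell type, but RNA came from whole modiolus, and the sources used here do not say how many mice went into a library, so p-values measure the spread between libraries, which may be technical.

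Guidance cues steer growing axons and, later in life, act on synapses, vessels and immune cells. Semaphorins signal through plexins, and most secreted class 3 semaphorins also need neuropilins as co-receptors. Ephrins are held on the cell surface and bind Eph receptor tyrosine kinases on neighbouring cells, netrins attract axons through Dcc and repel them with Unc5 receptors, and Slit proteins repel axons that carry Robo receptors. In the developing cochlea, Eph and ephrin, semaphorin and Slit signals help SGN fibres to find the hair cells.

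The table held between 12480876 and 15549319 counts per library. Replicates had Pearson correlations of 0.913 to 0.948 over genes on the scale of log2(CPM + 1), where CPM are counts per 1000000 counts. Of the 19 SGN markers, 18 had a listed transcript, and their summed level was 11700 to 15250 CPM in control and 7108 to 10420 CPM in degenerated libraries, without overlap. Tubb3, a neuronal tubulin, was at 471 ± 57.9 and 458 ± 28.9 CPM (mean ± SD, n = 3 each), whereas Nefl, Nefm, Nefh, Snap25, Thy1 and Calb2 were lower without overlap, such as the neurofilament Nefh at 2548 ± 610 and 1531 ± 290.4 CPM. Of the 16 SGN markers tested, 5 were higher and 11 lower. The 5 higher were Ntrk3, Gata3, Isl1, Map2 and Prph, and for each the groups overlapped. Ntrk3, for example, was at 277.5 ± 70.8 CPM in controls and 371.7 ± 60.7 CPM in degenerated libraries. Slc17a6 and Calb1 were near 0 in both groups. Hair cell markers (12 of 13 with a listed transcript) summed to 875 to 1147 and 553 to 683 CPM. Of the 10 tested, 9 were lower and 1, Myo7a, higher, and only Ocm, Slc26a5 and Strc did not overlap. Bone markers (6 of 9) summed to 722 to 1005 and 242 to 455 CPM. The sum of markers of supporting cells and otic epithelium (8 of 12) stood the other way, at 1377 to 1615 and 1705 to 2125 CPM. Most of it was Gjb2, at 1107 ± 58.9 and 1418 ± 122 CPM. Of the 8 tested, 6 were higher and 2, Tecta and Fgfr3, lower, and only Gjb2 and Krt18 did not overlap. Control 3 stood apart in skeletal muscle markers (8 of 8), with 403 CPM against 1.13 to 7.43 CPM in the other 5 libraries. Fewer cells of a type and less RNA per cell cannot be told apart in these samples, and the part of cell composition in the members' values was not tested.

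The members as a group differed little between degenerated and control modiolus. Of the 62 with a listed transcript, 55 had enough counts to be tested, and 1 of the 55 (1.82%) was called, which was Sema4f at a lower level. A gene was called where edgeR's quasi-likelihood test gave an unadjusted p under 0.01 and the log2 fold change was more than 0.2 away from 0. By this criterion 2.73% of all 14118 genes tested were called (2.01% higher and 0.715% lower), so the members' share is not above the background. After adjustment over all genes, edgeR left 0 of the 55 members and 0 of all genes at p under 0.05, whereas 6 members (10.9%) and 9.68% of all genes had an unadjusted p under 0.05. DESeq2 called 4 members, Sema4f, Sema4a, Plxnb2 and Ephb4 (7.27%, against 5.56% of all genes). It gave 2 of them, Sema4f and Plxnb2, an adjusted p under 0.05, as it did for 2.71% of all genes. With limma-voom 1 member, again Sema4f, and 2.76% of all genes were called. The levels of 9 members (16.4%) did not overlap between the groups, against 17.7% of all genes, with 4 higher and 5 lower (10.3% and 7.37% of all genes).

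Fold changes of the members lay on both sides of 0, with 26 higher and 29 lower and a median log2 fold change of -0.02 over degenerated against control. All genes tested had a median of 0.00. The 29 ligands tested had a median of -0.08, with 10 higher and 19 lower, and the 26 receptors a median of 0.13, with 16 higher and 10 lower. These are counts of directions and not of calls.

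**Figure D1:**
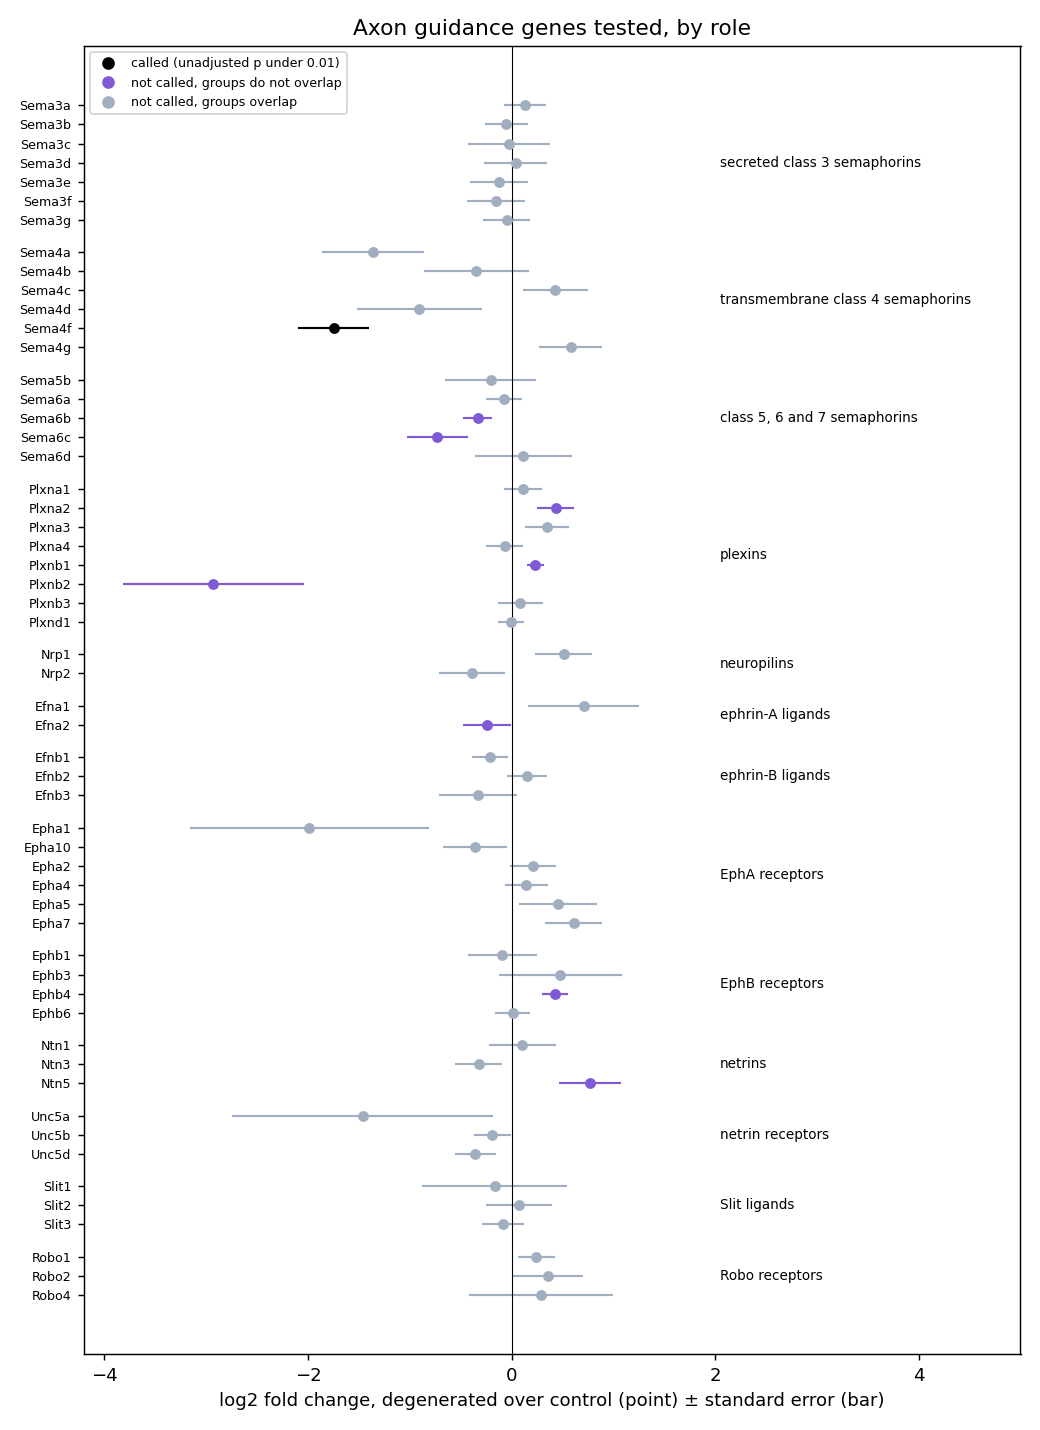
Log2 fold change of each of the 55 members tested (x axis, degenerated over control, point ± standard error), grouped by role on the y axis. Colour separates the 1 member called, the 8 others whose groups do not overlap, and the rest. Most points sit near 0, and Plxnb2, Epha1 and Sema4f lie farthest to the left.

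Levels were compared between genes per length, as TPM, that is counts per kilobase scaled to 1000000 over the listed transcripts. At a mean of 10 TPM or more over the 6 libraries stood 41 members, 13 stood at 1 to under 10 TPM, and 8 below 1 TPM. Sema3b, a secreted semaphorin, had the highest level of its class, at 193, 107 and 124 TPM in controls and 171, 142 and 130 TPM in degenerated libraries. Among receptors, Plxnd1, the receptor of Sema3e in vessels and neurons, was at 84.3, 71.5 and 60.9 TPM in controls and 70.7, 81.8 and 82.0 TPM in degenerated libraries. For both genes the groups overlapped. Listed transcripts make up 45.7% of the 418 annotated for the members (46.0% for all genes), and only 6 members (Sema3g, Sema6b, Efna2, Efnb3, Ntn5 and Plxna4) had every transcript listed, so that most values describe the listed share of a gene.

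**Figure D2:**
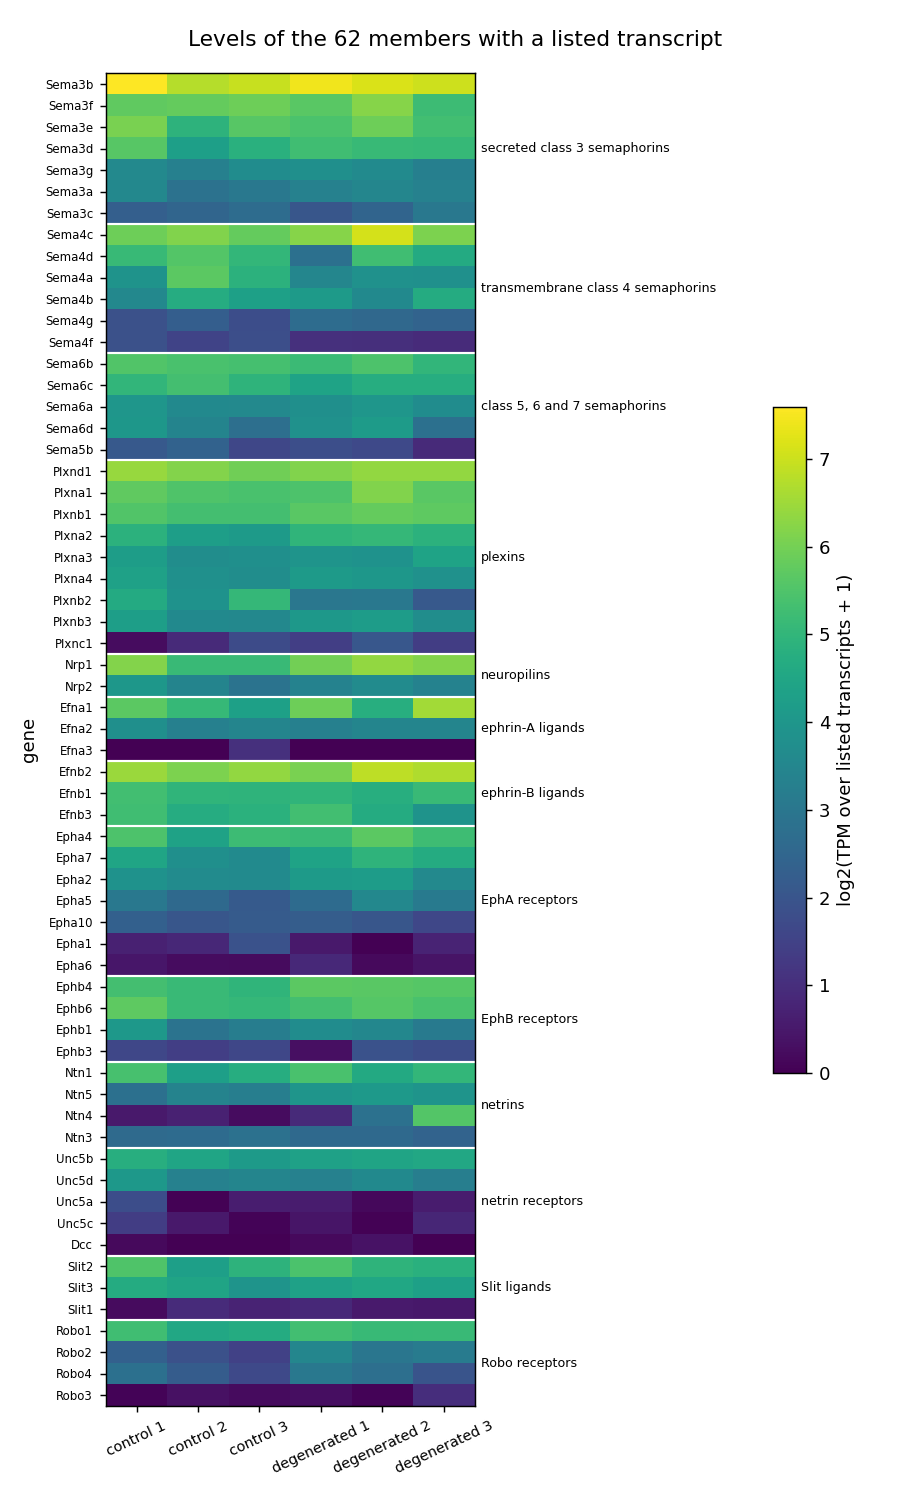
Level of the 62 members with a listed transcript in each of the 6 libraries, as log2(TPM + 1) over listed transcripts, in colour. Rows are genes grouped by role and ordered by level, and columns are libraries. Sema3b is the brightest row, and Dcc, Robo3 and Efna3 are among the darkest.

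The secreted class 3 semaphorins, which repel or attract growth cones through neuropilins and plexins, were all 7 tested and 0 were called. Their log2 fold changes ran from -0.15 to 0.13, the groups overlapped for every one of the 7, and standard errors were 0.21 to 0.40. Sema3b had a log2 fold change of -0.05 ± 0.22 (SE) and Sema3a, a strong repellent of sensory axons, of 0.13 ± 0.21. None of the counts of Sema3c lay in a transcript annotated as protein-coding.

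The transmembrane class 4 semaphorins, which act on neurons and on immune cells through B plexins, had the widest spread among ligand roles. All 6 were tested, 4 were lower and 2 higher, the median log2 fold change was -0.62, and 1 was called. Sema4f, a semaphorin of neurons and glia, had 53, 37 and 56 raw counts in controls and 17, 13 and 10 in degenerated libraries. This is 3.51, 2.62 and 3.57 CPM against 1.16, 0.916 and 0.789 CPM, so that the lowest control was above the highest degenerated library. The log2 fold change was -1.75 ± 0.35 (SE), and edgeR's test gave an unadjusted p of 0.00219 and an adjusted p of 0.277. The gene (ENSMUSG00000000627) is at chr6:82911885-82939769 on the minus strand of GRCm38, and 2 of its 4 annotated transcripts were listed.

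Almost all Sema4f counts (97.9% in controls, 92.4% in degenerated libraries) lay in Sema4f-204, a transcript that keeps an intron, and the 1 protein-coding transcript was not listed. The decrease is therefore one of the intron-retaining RNA, and the coding RNA was not analysed here. Sema4f was not called without degenerated 2 or without degenerated 3, and its log2 fold change stayed between -1.92 and -1.63 when any 1 library was left out. Sema4f-204 starts at the RefSeq start of the gene, and the 250 bases before that start are shown because this is the promoter of the 1 member called. The sequence is from RefSeq (GRCm38.p6, chr6:82939770-82940019, minus strand), written 5′ to 3′, with CCAAT box matches on either strand in capitals.
Sema4f: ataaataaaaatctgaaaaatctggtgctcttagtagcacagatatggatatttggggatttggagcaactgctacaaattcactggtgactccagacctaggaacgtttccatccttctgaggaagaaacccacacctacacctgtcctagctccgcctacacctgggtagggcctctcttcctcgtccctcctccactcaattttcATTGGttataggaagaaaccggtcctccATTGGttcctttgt

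The other class 4 semaphorins were not called in edgeR's test, while DESeq2 called Sema4a. Sema4a, which acts in T cells and in the retina, was at 16.4, 66.3 and 38.4 CPM in controls and 13.8, 15.5 and 17.8 CPM in degenerated libraries. Controls 2 and 3 were high, while control 1 lay within the degenerated range. The log2 fold change was -1.36 ± 0.50 (SE; edgeR, unadjusted p = 0.0346, adjusted p = 0.477), -1.75 with a call when control 1 was left out, and -0.81 when control 2 was left out. Blood and marrow markers (8 of 11 with a listed transcript) were also highest in control 2 and second in control 3, with sums of 6484, 52220 and 26780 CPM in controls and 7628, 4899 and 20220 CPM in degenerated libraries, and their part in the Sema4a values was not tested. The intron-retaining transcript Sema4a-211 alone was called lower, at a log2 fold change of -3.02 ± 0.80 (SE) and 4.65, 28.1 and 24.2 CPM against 3.41, 1.32 and 2.29 CPM. Protein-coding transcripts held 26.0% of Sema4a counts in controls and 52.9% in degenerated libraries.

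Sema4d, a plexin B1 ligand that is also known from T cells, was at 75.1, 119 and 78.0 CPM in controls and 13.5, 79.2 and 52.6 CPM in degenerated libraries, so the groups overlapped (-0.90 ± 0.61, SE). Sema4c, another plexin B ligand, had the highest level of the class per length, at 59.7, 70.1 and 55.1 TPM in controls and 72.9, 138 and 68.2 TPM in degenerated libraries. Degenerated 2 was high, and the other degenerated libraries were close to the controls.

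Class 5 and 6 semaphorins, transmembrane proteins of which class 6 binds A plexins, were mostly lower, with 4 of 5 tested below 0 and 0 called. Sema6b had every transcript listed and was at 82.7, 86.3 and 80.3 CPM in controls and 66.5, 74.4 and 57.4 CPM in degenerated libraries. All degenerated values lay below all controls, at a log2 fold change of -0.33 ± 0.14 (SE; edgeR, adjusted p = 0.536). Sema6c was at 35.9, 65.3 and 39.2 CPM in controls and 21.5, 31.8 and 31.5 CPM in degenerated libraries, again without overlap (-0.73 ± 0.30, SE; edgeR, adjusted p = 0.521). Sema6a and Sema6d overlapped, at -0.08 ± 0.17 and 0.12 ± 0.47.

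**Figure D3:**
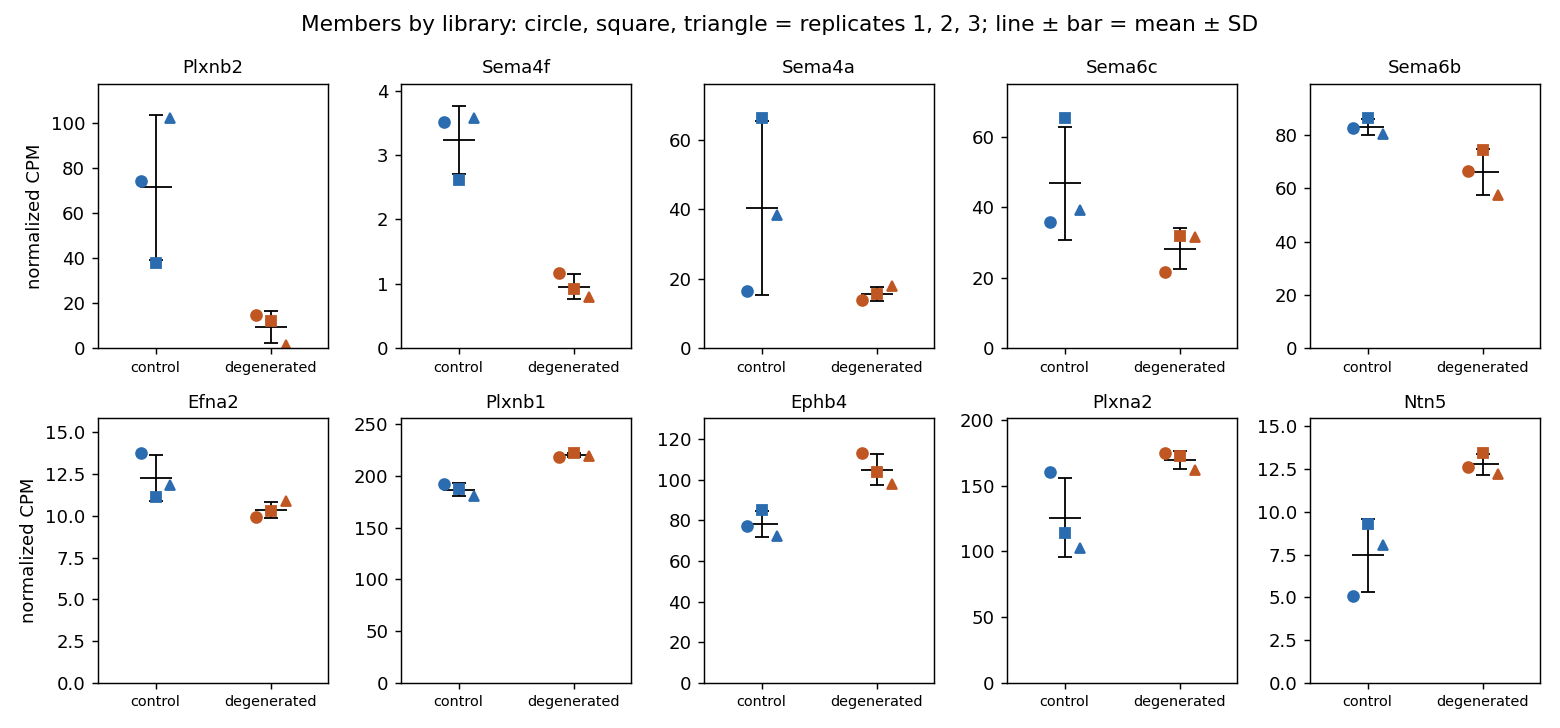
Normalized CPM (y axis, from 0) of the 10 members with an unadjusted p under 0.05 or without overlap between groups, in each control and degenerated library. Symbols are replicates 1, 2 and 3, and lines with bars are means ± SD. Plxnb2 and Sema4f show the widest gaps relative to their level, and for Sema4a control 1 sits among the degenerated libraries.

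Plexins, the receptors of semaphorins, held the widest fold change among the 55 members tested. Of 8 tested, 5 were higher and 3 lower, and 0 were called in edgeR's test, while DESeq2 called Plxnb2. Of the 8, 3 did not overlap between groups, a larger share than the 17.7% of all genes tested, but of few genes. Plxnb2, a receptor of class 4 semaphorins, was at 74.4, 37.6 and 102 CPM in controls and 14.7, 12.1 and 1.26 CPM in degenerated libraries. The lowest control was above the highest degenerated library, but both groups were widely spread, and the log2 fold change was -2.93 ± 0.89 (SE; edgeR, unadjusted p = 0.0166, adjusted p = 0.408). Without degenerated 3, in which the value was lowest, it was -2.41 with a call. The gene (ENSMUSG00000036606, chr15:89155549-89180788, minus strand) had 2 of 8 transcripts listed, and its counts lay mainly in the coding Plxnb2-201, with 1115, 508 and 1574 raw counts in controls and 198, 153 and 0 in degenerated libraries. Tested on its own, Plxnb2-201 was not called.

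Plxnb1, the receptor of Sema4d, moved the other way and by less. It was at 193, 187 and 181 CPM in controls and 218, 222 and 220 CPM in degenerated libraries, with tight replicates and no overlap (0.24 ± 0.09, SE; edgeR, unadjusted p = 0.0342, adjusted p = 0.475). Gm7628 overlaps Plxnb1 on the other strand. Plxnb1 was the 1 member of 52 with an unadjusted p under 0.05 when only protein-coding transcripts were counted, where 0 members and 2.61% of all genes were called. Plxna2, a receptor of class 6 semaphorins, was at 160, 114 and 103 CPM in controls and 175, 172 and 162 CPM in degenerated libraries (0.43 ± 0.18, SE; edgeR, adjusted p = 0.53). Control 1 was close to the degenerated libraries, and without it Plxna2 was called at a log2 fold change of 0.63. The other A plexins, Plxnb3 and Plxnd1 lay between -0.07 and 0.35 and overlapped.

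The neuropilins, co-receptors for class 3 semaphorins and for VEGF, overlapped between the groups. Nrp1 was at 72.1, 34.6 and 34.7 TPM in controls and 61.6, 81.1 and 71.8 TPM in degenerated libraries, with control 1 among the degenerated values. Its log2 fold change was 0.51 ± 0.28 (SE; edgeR, adjusted p = 0.615), and 0.87 with a call when control 1 was left out. Nrp2 was at -0.39 ± 0.32.

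Eph receptors and ephrins, which signal on contact between cells, had 15 members tested and 0 called in edgeR's test. DESeq2 called Ephb4 alone among them. Ephb4, the receptor of ephrin-B2 in vessels, was at 77.1, 85.0 and 72.1 CPM in controls and 113, 104 and 97.8 CPM in degenerated libraries. Every degenerated library was above every control, at a log2 fold change of 0.43 ± 0.13 (SE; edgeR, unadjusted p = 0.0142, adjusted p = 0.398) and of 0.35 to 0.49 with any 1 library left out. The gene is at chr5:137350109-137378669 on the plus strand (ENSMUSG00000029710), with 4 of 5 transcripts listed. Counts assigned to its single transcripts varied widely between libraries, also within a group. The counting tool was not given, and how reads were shared among transcripts of 1 gene was not tested, here or for other members. Ephb4-203 held 0, 970 and 1078 raw counts in controls and 1547, 0 and 646 in degenerated libraries, and Ephb4-201 held 84, 6 and 6 against 104, 1471 and 90. Ephb4-204, of a kind that is broken down by nonsense-mediated decay, had 754, 55 and 46 raw counts in controls and 1, 0 and 0 in degenerated libraries. It was called lower (edgeR, adjusted p = 0.435), while the gene's sum was higher. Reads of Zan, which overlaps Ephb4 on the other strand, cannot be told apart, as the kit does not mark strand.

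**Figure D4:**
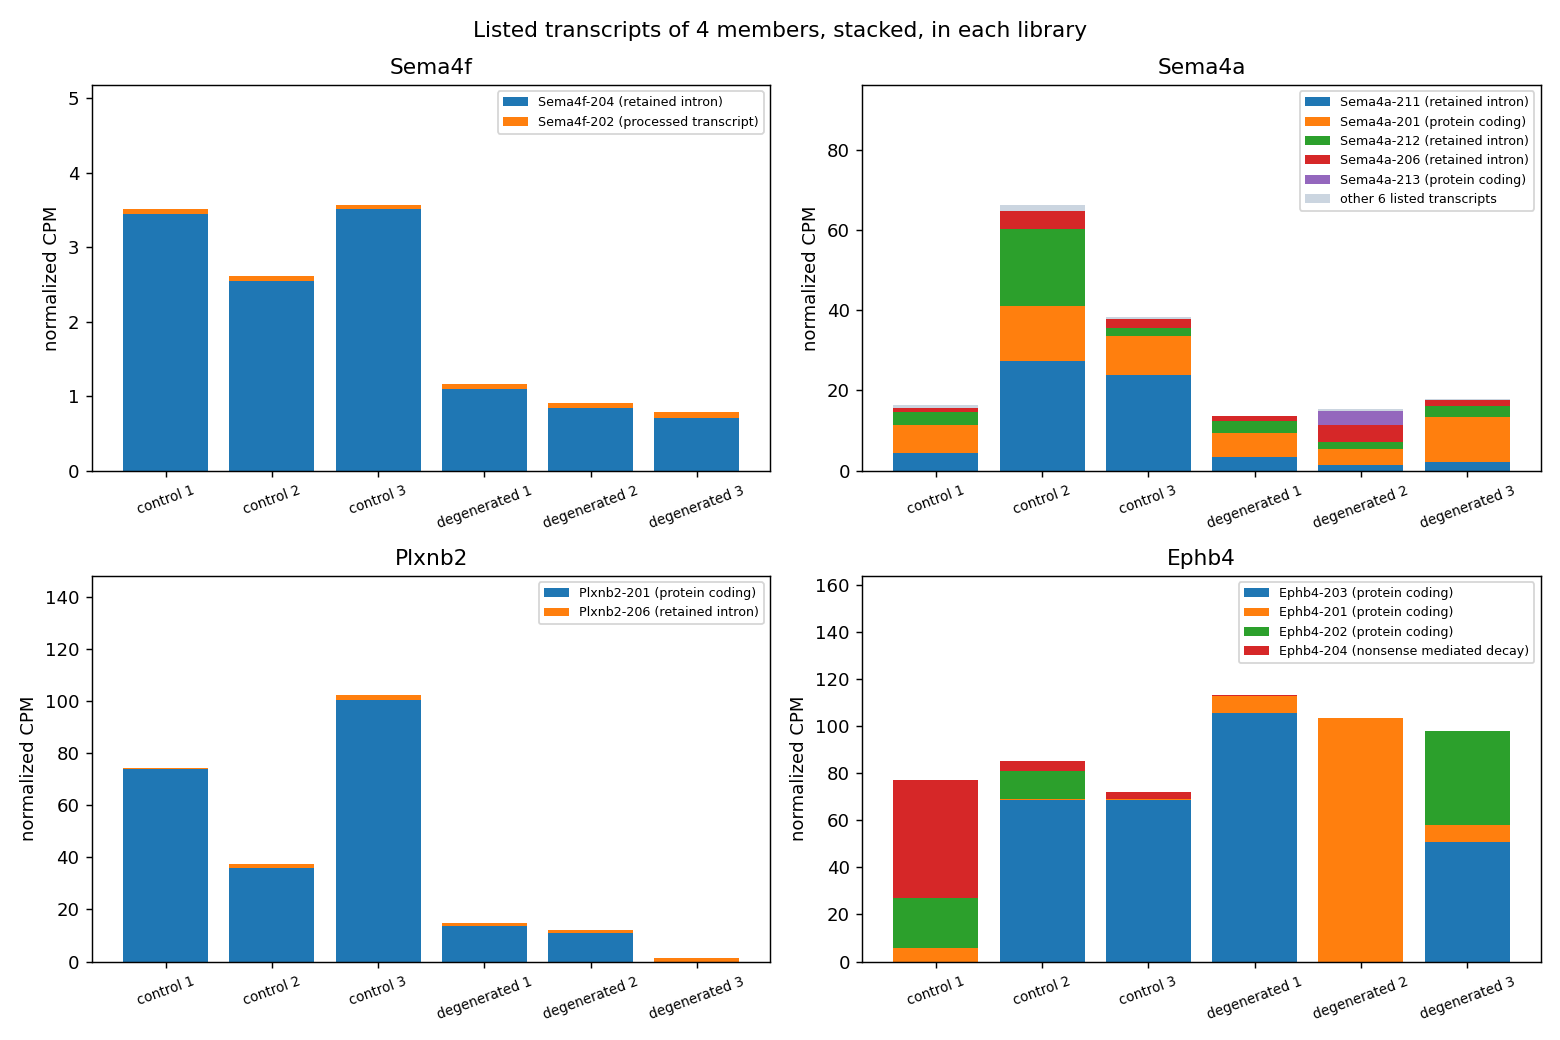
Normalized CPM of the listed transcripts of Sema4f, Sema4a, Plxnb2 and Ephb4, stacked for each of the 6 libraries (y axis from 0). For Sema4f the bars are almost wholly an intron-retaining transcript, and for Ephb4 the transcript assigned the most counts differs between libraries of 1 group.

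Counted one by one, 96 transcripts of the members were tested, and 3 were called (3.12%, against 1.79% of all 26065 transcripts). They were Sema4f-204, Sema4a-211 and Ephb4-204, all lower and none of them annotated as protein-coding, that is 3 of 27 such transcripts of the members (11.1%, against 1.27% of all transcripts that are not protein-coding). Of the 69 protein-coding transcripts of the members, 0 were called in edgeR's test, against 2.14% of all, and 1 of these 69, Sema6b-201, had an unadjusted p under 0.05. After adjustment 0 transcripts of the members and 0.0153% of all transcripts had a p under 0.05. The levels of 15 transcripts (15.6%) did not overlap between groups, against 16.4% of all.

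Among the other Eph receptors, Epha4, which is known for its part in axon repulsion, had the highest level of the A class, with 43.8, 19.8 and 35.8 TPM in controls and 34.2, 50.04 and 36.4 TPM in degenerated libraries. Control 2 was low, and the groups overlapped (0.14 ± 0.21, SE). Most Epha4 counts (61.4% in controls, 74.5% in degenerated libraries) lay in Epha4-205, a nonsense-mediated decay transcript, so this level is not mainly one of coding RNA. Epha7 was at 0.61 ± 0.28 and Epha5 at 0.45 ± 0.38. Epha1, at 0.927, 1.34 and 4.53 CPM in controls and 0.684, 0 and 1.03 CPM in degenerated libraries, was at a low level in all libraries and overlapped. Ephb6, a receptor without kinase activity, was at 0.01 ± 0.17.

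Of the ephrins, Efnb2, the ligand of Ephb4, had the highest level, at 87.4, 67.5 and 81.5 TPM in controls and 66.0, 114 and 104 TPM in degenerated libraries. Degenerated 1 was below every control and the other degenerated libraries above (0.15 ± 0.20, SE). Efna1 was at 50.7, 33.4 and 19.0 TPM in controls and 59.0, 26.1 and 93.1 TPM in degenerated libraries, a spread within groups as wide as the gap between them. Efna2 was at 13.8, 11.1 and 11.9 CPM in controls and 9.92, 10.3 and 10.9 CPM in degenerated libraries. These values do not overlap but nearly touch (-0.24 ± 0.23, SE; edgeR, adjusted p = 0.783). Efnb1 and Efnb3 were at -0.21 ± 0.17 and -0.33 ± 0.38.

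Netrins and their receptors had 6 members tested and 0 called. Ntn5, a netrin known from cells at the nerve exit points of the spinal cord, was at 5.10, 9.27 and 8.04 CPM in controls and 12.7, 13.4 and 12.2 CPM in degenerated libraries. All degenerated libraries were higher and close to each other, at a log2 fold change of 0.77 ± 0.31 (SE; edgeR, unadjusted p = 0.0435, adjusted p = 0.499). All 3 annotated transcripts of Ntn5 (chr7:45684022-45694556, plus strand) were listed and are protein-coding, and Sec1 overlaps it on the other strand. Ntn1, the best known attractant of the family, was at 41.2, 18.6 and 25.5 TPM in controls and 41.5, 23.8 and 31.5 TPM in degenerated libraries, and overlapped (0.11 ± 0.33, SE). The netrin receptors Unc5a, Unc5b and Unc5d were all lower without a call, and Unc5b, the one with the highest level, was at 26.4, 21.0 and 16.8 TPM in controls and 19.2, 20.8 and 22.5 TPM in degenerated libraries (-0.19 ± 0.18, SE).

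Slit ligands and Robo receptors had 6 members tested and 0 called, and the groups overlapped for each. Slit2 was at 44.6, 18.6 and 29.1 TPM in controls and 42.3, 29.8 and 27.0 TPM in degenerated libraries, and Slit1, Slit2 and Slit3 had log2 fold changes of -0.16 to 0.07. Robo1 was at 37.3, 22.7 and 24.5 TPM in controls and 38.6, 33.5 and 34.4 TPM in degenerated libraries (0.24 ± 0.18, SE). Control 1 was as high as the degenerated libraries. Robo2 and Robo4 were at 0.35 ± 0.35 and 0.29 ± 0.71. For Robo2 most counts lay in the intron-retaining Robo2-208, which held 93.0% in controls and 64.9% in degenerated libraries.

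Control 1 stood highest in the median level of the members. The median over members of log2(CPM + 1) minus the mean of the 6 libraries was 0.21 in control 1 and -0.04 and -0.14 in controls 2 and 3, against -0.05 to 0.03 in degenerated libraries. Over all genes these medians lay between -0.01 and 0.02. Schwann and satellite glia markers (10 of 13 with a listed transcript) summed to 9823 CPM in control 1, 5598 and 6678 CPM in controls 2 and 3, and 4915 to 7749 CPM in degenerated libraries. SGN markers were also highest in control 1, at 15250 CPM, and blood and marrow markers were lowest there among controls, at 6484 CPM. The part of these cells in the members' values of control 1 was not tested. Without control 1 the median log2 fold change of the members was 0.16 instead of -0.02, and 4 of 56 members (7.14%) and 3.38% of all genes were called, with Nrp1 and Plxna2 higher and Sema4f and Sema4a lower.

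The promoters of the 3 members that were higher at an unadjusted p under 0.05 are shown to compare them with that of Sema4f. Each sequence is the 250 bases before the RefSeq start (GRCm38.p6, plus strand, 5′ to 3′), with matches of the CCAAT box (CCAAT) and the GC box (GGGCGG) on either strand in capitals. Ephb4 is at chr5:137349859-137350108, Plxnb1 at chr9:109095186-109095435 and Ntn5 at chr7:45683772-45684021. Ephb4-201 and Ntn5-202 start at the RefSeq start, but other listed transcripts do not. Plxnb1-201 starts at -47 bases from it, within the window shown. Ntn5-201 and Ephb4-202 start 394 and 404 bases downstream, so the windows do not directly precede them.
Ephb4: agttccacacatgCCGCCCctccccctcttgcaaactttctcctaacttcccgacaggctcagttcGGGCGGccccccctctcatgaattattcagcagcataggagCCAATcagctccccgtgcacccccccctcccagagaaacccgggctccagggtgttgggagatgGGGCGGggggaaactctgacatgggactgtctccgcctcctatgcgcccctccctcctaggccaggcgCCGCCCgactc
Plxnb1: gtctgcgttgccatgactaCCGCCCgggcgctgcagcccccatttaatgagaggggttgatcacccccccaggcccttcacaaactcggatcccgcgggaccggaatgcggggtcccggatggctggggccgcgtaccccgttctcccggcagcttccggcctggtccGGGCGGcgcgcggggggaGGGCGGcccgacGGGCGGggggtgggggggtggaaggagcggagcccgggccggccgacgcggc
Ntn5: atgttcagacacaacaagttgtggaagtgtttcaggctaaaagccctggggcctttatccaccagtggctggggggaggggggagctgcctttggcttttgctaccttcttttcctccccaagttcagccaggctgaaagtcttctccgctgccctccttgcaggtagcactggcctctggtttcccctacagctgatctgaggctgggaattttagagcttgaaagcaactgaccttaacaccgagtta

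Of 5 motifs searched on both strands, the GC box had 4 matches in Ephb4, 4 in Plxnb1 and 0 in Sema4f and Ntn5. The CCAAT box had 2 in Sema4f, 1 in Ephb4 and 0 in Plxnb1 and Ntn5. The TATA box (TATAAA), the AP-1 site (TGANTCA) and the STAT site (TTCNNNGAA) had 0 matches in these windows, and no matches overlap. Among the 32851 promoters of the table, of the same length, 32.7% hold the GC box, 33.8% the CCAAT box, 12.4% the TATA box, 6.75% the AP-1 site and 7.02% the STAT site. CpG pairs numbered 30 in Plxnb1, 12 in Ephb4, 4 in Sema4f and 2 in Ntn5. A promoter was found for 59 of the 69 members.

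Members with too few counts for the test were Epha6, Efna3, Dcc, Unc5c, Ntn4, Plxnc1 and Robo3. Dcc, the receptor through which netrins attract axons, had 4, 0 and 0 raw counts in controls and 4, 8 and 0 in degenerated libraries, so no difference was detectable at this depth. Ntn4, a netrin of basement membranes, had 2, 3 and 1 raw counts in controls and 4, 25 and 176 in degenerated libraries. Each degenerated library was above every control, and most of the counts were in degenerated 3. Fitted without the filter on low counts, Ntn4 had a log2 fold change of 5.20 ± 1.53 (SE; edgeR, adjusted p = 0.542) without a call, and it was called higher at 5.76 ± 1.11 when degenerated 1 was left out. Epha3, Epha8, Ephb2, Sema5a, Sema7a, Efna4 and Efna5 had no listed transcript and were not analysed here.

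Other genes of the pathway were read from lists of further guidance ligands, further receptors, and signal proteins below the receptors. Of the other ligands, 11 of 15 were tested, and 1, Ntng2, a membrane-bound netrin, was called lower at 59.1 ± 5.78 CPM in controls and 36.5 ± 6.05 CPM in degenerated libraries (-0.70 ± 0.18, SE). Of the other receptors and co-receptors, 20 of 23 were tested, and 1, Itgb1, integrin beta 1, was called higher at 4.34 ± 0.255 against 57.2 ± 25.1 CPM (3.72 ± 0.37, SE). Medians of both lists were 0.10 and 0.34. As for the members, values of genes in all these lists describe listed transcripts only, which are 46.0% of all annotated transcripts. Whether unlisted transcripts hold more of the counts of Itgb1, or of Arhgef12 below, was not tested.

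Of the signal proteins, 44 of 51 were tested, with a median of 0.12, and those called included Fyn and Arhgef12. Fyn, a Src family kinase that acts below several guidance receptors, was lower at 150 ± 15.2 CPM in controls and 83.9 ± 24.0 CPM in degenerated libraries (-0.83 ± 0.22, SE). Arhgef12, which binds B plexins, was called higher, at 4.17, 5.66 and 3.64 CPM in controls and 5.75, 99.1 and 139.5 CPM in degenerated libraries, with degenerated 1 near the controls (4.18 ± 1.10, SE).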

How the data were processed

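The authors aligned reads with Hisat2 2.1.0 and evaluated expression with StringTie 1.3.3b, and the submitters' processing notes also name Bowtie 0.12.2 and the builds mm8 and mm10. The counting tool, annotation and test were not given in the sources used here. Raw, unnormalized counts of 65535 Ensembl transcripts were deposited. The 65272 that matched GENCODE M21 (GRCm38) were summed per gene, and 263 (0.125% of counts) were dropped. The design assumed counts per gene.

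The test was the robust quasi-likelihood F test of edgeR 4.0.16 (R 4.3.3; filterByExpr, TMM factors of 0.983 to 1.02, no covariates) on 3 against 3 libraries, with p adjusted over all 14118 genes. The biological coefficient of variation was 0.488. CPM use TMM factors from gene counts, or from transcript counts where transcripts were tested on their own. SE is the absolute log2 fold change over the square root of F. TPM divide counts by transcript length. Steps were run on simulated counts with a smaller spread than these libraries and larger fold changes than most members had. Power at the spread of these libraries was not tested. Alternatives were DESeq2 1.42.0, limma-voom (limma 3.58.1), other normalizations and filters, a replicate block and leaving out each library. Counting coding transcripts only and testing single transcripts were chosen after seeing the data.

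Members and lists were chosen with earlier results of these data known. Named were members with an unadjusted p under 0.05, without overlap, or with the highest TPM of their role, and list genes called. Some results for the lists are not reported here. Other members that are named were chosen after their values were seen.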

Additional observations from a re-analysis of the deposited data

How the results depend on the processing

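With 21 members followed under the alternatives, 273 of 296 fold changes kept their direction and their side of the threshold, 7 became calls, 3 lost a call and 13 changed sign. No member was called higher in edgeR's test of all libraries (0; 3 members were higher at an unadjusted p under 0.05), against 1 in DESeq2 and 0 to 2 with 1 library left out. Against 1 called lower, DESeq2 called 3, the fit with the replicate block 0, the fit to genes with every transcript listed 0, protein-coding transcripts alone 0, and fits with 1 library left out 0 to 2. Libraries of 9 members did not overlap, of 3 among the 6 members with every transcript listed (50%, against 18.4% of all such genes), and of 14 to 21 with 1 library left out (24.6% to 37.5% of members and 24.9% to 33.1% of all genes), when fewer libraries have to be apart. The median log2 fold change was -0.17 in genes with every transcript listed and -0.10 to 0.16 with 1 library left out. Of all genes 385 were called, 785 in DESeq2, 218 with the replicate block and 135 among genes with every transcript listed. Equal replicate numbers were not taken to pair the libraries, because correlations of deviations were 0.16, -0.09 and 0.07, not all above 0.1, although 2 of 3 controls correlated best with their own number.

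Log2 fold changes near 0 changed sign with 1 library left out for Epha4 (-0.035 to 0.28), Ntn1 (-0.16 to 0.39), Plxnd1 (-0.11 to 0.045), Sema3b (-0.22 to 0.16) and Slit2 (-0.18 to 0.39). Plxnd1 was also at 0.002 in limma-voom and with the replicate block, and Epha4 at -0.51 in protein-coding transcripts alone. The cause of these changes was not tested. The log2 fold change of Sema4f was not called with the replicate block.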
